A study of Mus musculus with 102 samples.

Results

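The spleens of 7 male wild-type C57BL/6J mice (BL6J in the labels) aged 20 months were compared with those of 9 such mice aged 14 months. The libraries were chosen by tissue and age alone, and these 16 are all the spleen libraries of both ages among the 45 spleen libraries, at 6 ages, of a series of 102 samples. No animal of either age was labelled as treated or mutant, and each library carries its own animal number. The replicate numbers used below follow the order of deposition and are only names. A gene was tested when its value reached 10 in at least 5 of the 45 libraries, which 16243 of 51810 genes did. Each value is a normalised read count, that is, reads divided by the library's size factor, and a log2 difference is the mean log2(value + 1) at 20 months minus that at 14 months.

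The spleen filters blood in its red pulp, where macrophages recycle iron from old red cells, and holds B-cell follicles, T-cell zones and a marginal zone in its white pulp. In mice it also makes blood cells throughout life, chiefly red cells, granulocytes and megakaryocytes, and this activity is known to expand under stress. Whole spleen was sequenced, so fewer cells of a type and less RNA per cell cannot be told apart.

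Libraries held 5058444 to 8732622 reads in genes at 14 months and 3031246 to 11702988 at 20 months, a difference in means that an exact 2-sided permutation test did not separate (p = 0.586). The spleen markers Cd79a, Cd3e, Cr2, Cxcl13 and Spic had reads in all 16 libraries, and the spleen-specifying factor Tlx1 in all but replicate 2 of 20 months. Replicates 2 and 7 of 20 months stood apart from the other libraries of both ages in genes of red cell precursors and the cell cycle, so counts are also given without them, an alternative chosen after the values were seen. Replicate 2 of 20 months was also the library with the fewest reads, 3031246. The nuclear RNA Malat1 took 1.06% to 1.17% of reads in replicates 6 and 7 of 14 months and 0.774% to 1.13% in replicates 4, 5 and 6 of 20 months, against 2.0% to 3.17% elsewhere. Some genes with known spleen expression, among them B2m, Ms4a1, Igkc and Foxp3, are listed at 0 in all libraries and were not tested.

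At an adjusted p under 0.05, limma called 0 of 16243 genes (0.0%) between 14 and 20 months. Without adjustment, 664 genes (4.09%) stood higher and 891 (5.49%) lower at 20 months at p under 0.05, together 9.57% of those tested. Leaving out 1 library at a time gave 463 to 956 higher and 562 to 1111 lower, the lowest of both without replicate 2 of 20 months. On reads recovered from the values, edgeR's quasi-likelihood test called 9 genes higher (0.0554%) and 0 lower, against 1960 in either direction at an unadjusted p under 0.05. DESeq2 called 127 higher (0.782%) and 28 lower (0.172%), together 0.954%, and all 9 genes of edgeR were among its calls. Without replicates 2 and 7 of 20 months, limma again called 0 genes, with 462 higher (2.84%) and 512 lower (3.15%) unadjusted, and edgeR and DESeq2 each called 1. The groups did not overlap in 2 genes that stood higher (0.0123%) and 1 that stood lower (0.00616%).

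Genes of neutrophils stood higher at 20 months, and Ctsg, one of them, had the largest log2 difference of all genes tested. Neutrophil granule proteins are transcribed in a known order: those of the primary granules, such as myeloperoxidase, in promyelocytes, and those of the secondary granules, such as lactoferrin, in the later myelocytes. The mature cell keeps the calprotectin genes S100a8 and S100a9 active. Of 9 tested genes of the primary granule list, 6 stood higher at an unadjusted p under 0.05 and 0 lower, and the list's median log2 difference was 2.47 beside -0.0063 over all genes tested. Of 11 secondary granule genes, 9 stood higher and 0 lower, with a median of 2.49. Of 12 mature neutrophil genes, 5 stood higher and 0 lower, with a median of 1.12. Without replicates 2 and 7 of 20 months these counts were 6, 9 and 3, and the medians were 2.04, 1.94 and 1.05.

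The promoters of the member with the smallest p in each of these lists are shown because these genes stood higher together in the same libraries. Each run gives the 250 bases before the RefSeq transcription start on GRCm38.p6, 5′ to 3′ in the direction of the gene. Capitals mark matches, on either strand, to TTGCNNAA (a core of C/EBP sites), GAGGAA (a core of PU.1 sites) and AGATAA (bound by factors of the GATA family), and no marked match overlaps another. For Mmp8 no GENCODE transcript was found to begin at the RefSeq start, so its distances hold for the RefSeq start only.
Ctsg promoter (chr14:56102575-56102824, minus strand): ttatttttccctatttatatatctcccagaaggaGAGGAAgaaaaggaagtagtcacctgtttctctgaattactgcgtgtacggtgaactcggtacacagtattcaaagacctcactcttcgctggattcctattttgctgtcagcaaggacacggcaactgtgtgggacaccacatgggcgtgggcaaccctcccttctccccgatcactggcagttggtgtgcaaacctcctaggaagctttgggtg
Mmp8 promoter (chr9:7558179-7558428, plus strand): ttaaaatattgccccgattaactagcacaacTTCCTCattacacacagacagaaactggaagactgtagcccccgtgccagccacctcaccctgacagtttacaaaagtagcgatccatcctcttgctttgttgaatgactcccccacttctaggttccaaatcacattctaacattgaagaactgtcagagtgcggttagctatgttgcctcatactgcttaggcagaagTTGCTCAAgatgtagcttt
S100a9 promoter (chr3:90695722-90695971, minus strand): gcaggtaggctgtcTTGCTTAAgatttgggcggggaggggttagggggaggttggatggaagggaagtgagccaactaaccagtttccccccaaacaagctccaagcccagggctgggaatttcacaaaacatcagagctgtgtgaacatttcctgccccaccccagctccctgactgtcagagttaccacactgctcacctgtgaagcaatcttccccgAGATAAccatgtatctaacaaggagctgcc
The Ctsg window held 1 GAGGAA match, 216 bases before the start. The Mmp8 window held 1 GAGGAA match at 219 bases and 1 TTGCNNAA match at 19 bases, and that of S100a9 1 TTGCNNAA match at 236 bases and 1 AGATAA match at 30 bases. Of 38 symbols on the 3 lists, 34 had a window. In at least 1 window of the symbol, 21 held GAGGAA (61.8%), 9 TTGCNNAA (26.5%) and 3 AGATAA (8.82%). Counted in the same way over all 27025 symbols the shares were 25.9%, 10.8% and 11.4%, and over all 32851 windows of this length 23.3%, 9.56% and 9.99%. A match describes letters only and is no evidence of binding.

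Among primary granule genes, Ctsg, which encodes the protease cathepsin G, had a lowest, median and highest value of 0, 4.48 and 26.5 at 14 months and of 3.09, 86.9 and 110 at 20 months. Replicates 2, 4, 5, 6 and 7 of 20 months exceeded all 14-month libraries, replicate 1 lay within their range and replicate 3 near their median. The log2 difference was 3.14 ± 0.78 (SE), with an adjusted p of 0.191 by limma. Mpo, the myeloperoxidase gene, ran from 0 through a median of 30.5 to 82.3 at 14 months and from 19.3 through 180 to 311 at 20 months. All 20-month libraries but replicate 3 were above the highest of 14 months, and the log2 difference was 2.96 ± 0.89 (SE). Elane (neutrophil elastase) and Prtn3 (proteinase 3) stood higher by 2.44 and 2.47. Ms4a3, a gene of granulocyte and monocyte progenitors, and Fcnb, a ficolin of the lectin pathway, stood higher by 2.65 and 2.57. The 3 members that did not differ at this level were Srgn, Nkg7 and Cst7, which lymphocytes also express.

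Among secondary granule genes, Mmp8, the neutrophil collagenase, ran from 2.24 through a median of 25.1 to 83.0 at 14 months and from 30.3 through 199 to 705 at 20 months. Replicates 2 and 7 of 20 months were highest and replicate 1 lowest, and 5 of 7 exceeded all 14-month libraries. The log2 difference was 2.93 ± 0.78 (SE); the adjusted p was 0.221 by limma and 0.0560 by edgeR, and 0.0143 by DESeq2, which called it. Ltf, the lactoferrin gene, ran from 11.5 through 122 to 470 at 14 months and from 73.4 through 1073 to 1516 at 20 months, with a log2 difference of 2.71 ± 0.82 (SE). Replicates 2, 4, 5, 6 and 7 again lay above the 14-month range and replicates 1 and 3 within it. Ngp, Camp and Lcn2, which encode neutrophilic granule protein, cathelicidin and lipocalin-2, stood higher by 2.49, 2.31 and 2.58. Lyz2, a lysozyme gene that macrophages express too, differed by -0.12.

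S100a9 (chr3:90692632-90695721, GRCm38), which encodes a calcium-binding subunit of calprotectin, had the smallest p of all genes higher at 20 months. Its lowest, median and highest values were 139, 402 and 1056 at 14 months (mean 456 ± 337 SD, n = 9) and 355, 2170 and 9405 at 20 months (mean 3097 ± 3153 SD, n = 7). Replicate 2 of 20 months was highest, 5 of 7 were above every 14-month library, and replicates 1 and 3 fell inside the 14-month range. The log2 difference was 2.42 ± 0.52 (SE), with adjusted p values of 0.191 by limma, 0.0262 by edgeR and 0.00122 by DESeq2. Without replicates 2 and 7 of 20 months it was 1.71. Its partner S100a8 stood higher by 2.58 and Retnlg, a resistin-like gene of mature neutrophils, by 2.71. By contrast Cxcr2, the chemokine receptor of mature circulating neutrophils, had a median of 150 at 14 months and 154 at 20 months. Its log2 difference was -0.65, the lowest of the mature neutrophil list. Replicates 1, 2 and 3 of 20 months, at 28.8, 15.8 and 45.6, were below the 14-month range of 66 to 295, and the others lay within it. Csf3r, the G-CSF receptor, differed by 0.62 ± 0.36 (SE) with an adjusted p of 0.586 by limma.

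**Figure D1:**
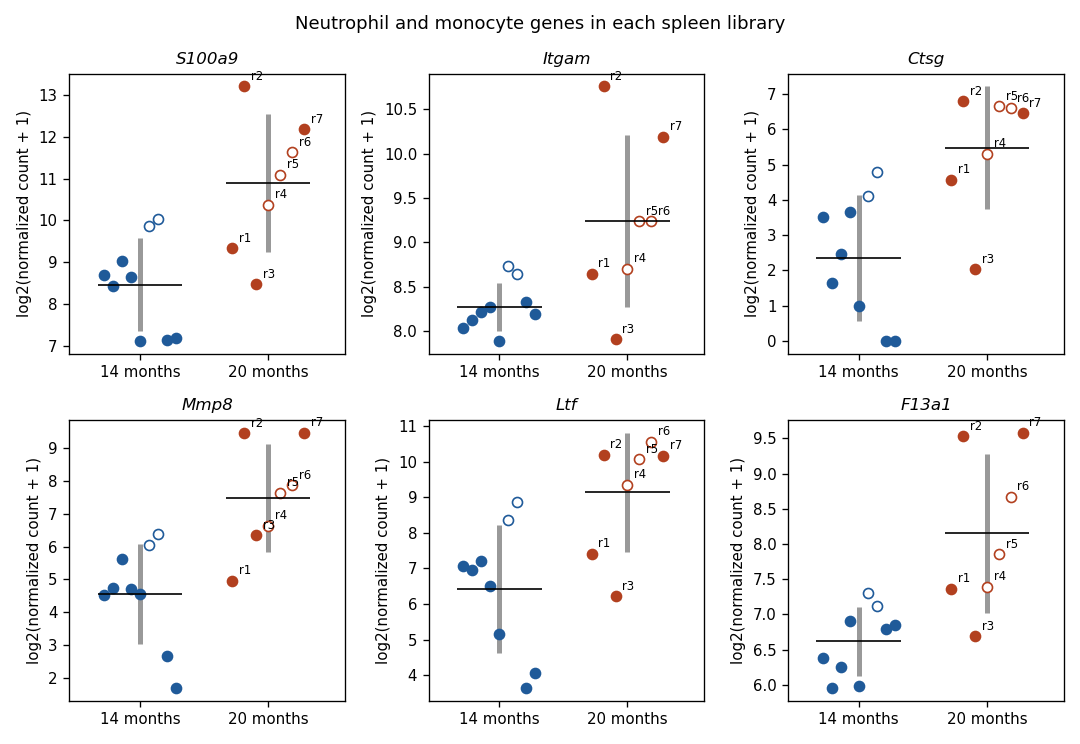
log2(normalised count + 1) of 6 genes in each of the 9 libraries of 14 months and 7 of 20 months; open circles are libraries with Malat1 under 1.5% of reads, black lines are means and grey bars 1 SD to either side. Replicates 2, 5, 6 and 7 of 20 months lie above all 14-month libraries in every panel, while replicate 3 of 20 months lies inside the 14-month range.

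The libraries of high Malat1 share were 7 of 14 months and 4 of 20 months, the latter being replicates 1, 2, 3 and 7. Replicates 2 and 7 of 20 months thus fell in the high class only. Here and in the lists below, a split by Malat1 share cannot be told apart from these replicates. Within the high-share libraries the median log2 difference was 2.55 for the primary and 2.44 for the secondary granule list. Within those of low share (2 and 3 libraries) it was 0.80 and 1.17. For the mature neutrophil list these medians were 0.98 and 0.39. At 14 months the low-share replicates 6 and 7 had the highest granule list means and the high-share replicates 8 and 9 the lowest. With the log2 Malat1 share as a covariate, 6 primary and 9 secondary granule genes stood higher at an unadjusted p under 0.05. That fit kept replicates 2 and 7 of 20 months, whose secondary granule list means were 2.73 and 2.98. The other high-share libraries of 20 months, replicates 1 and 3, were at 0.84 and -0.11, within the 14-month range of -1.61 to 1.71.

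The other genes named among the higher ones were Itgam, Pygl, Syne1 and F13a1. Itgam (chr7:128062640-128118491), the CD11b integrin chain of neutrophils and macrophages, ran from 236 through 296 to 423 at 14 months and from 239 through 602 to 1732 at 20 months. The ranges overlapped in replicates 1, 3 and 4 of 20 months, and the log2 difference was 0.97 ± 0.23 (SE; adjusted p 0.191 by limma, 0.0243 by edgeR). Without replicates 2 and 7 of 20 months the difference was 0.48. Pygl (chr12:70190811-70231488), a glycogen phosphorylase, ran from 114 through 151 to 369 and from 195 through 499 to 673, a difference of 1.22 ± 0.27. Replicates 1 and 3 of 20 months lay in the 14-month range, and without replicates 2 and 7 of 20 months the difference was 1.02. Syne1 (chr10:5020917-5551482), which encodes the nuclear envelope protein nesprin-1, ran from 426 through 537 to 688 and from 593 through 760 to 1852, a difference of 0.73 ± 0.17. Replicates 2 and 7 of 20 months, at 1852 and 1532, were far above the rest, and without them the difference was 0.38. F13a1 (chr13:36867178-37050244), the coagulation factor XIII A chain of monocytes, macrophages and megakaryocytes, ran from 61.1 through 110 to 158 and from 102 through 230 to 762. All 20-month libraries but replicate 3 exceeded the 14-month range, and the difference was 1.54 ± 0.38, or 0.98 without replicates 2 and 7 of 20 months. edgeR called Syne1 and F13a1 but not Pygl (adjusted p 0.0262, 0.0243 and 0.111).

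edgeR's other calls were Abca13, Padi4, Bmx, F10 and the immunoglobulin segment Igkv8-24, named here after their values were seen. Padi4, whose enzyme citrullinates histones in neutrophils, had a median of 41.3 at 14 months and 86.3 at 20 months, with 1127 and 376 in replicates 2 and 7 of 20 months. Abca13, a lipid transporter gene, had a median of 20.1 and 68.1, with 418 and 350 in the same libraries. Bmx, a Tec-family kinase gene, ran from 2.14 through 14.3 to 21.6 and from 18.2 through 38.4 to 128. F10, the coagulation factor X gene, ran from 8.57 through 23.4 to 41.5 and from 31.7 through 66.6 to 452. In Bmx 1 library of 20 months and in F10 2 lay within the 14-month range. The Igkv8-24 call rested on replicate 5 of 20 months at 3293, beside 13.5 to 130 in the other 20-month libraries and 7.83 to 107 at 14 months. Reads can be split among those V segments that are close copies.

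Of 12 monocyte genes, 4 stood higher and 1 lower at an unadjusted p under 0.05, with a median log2 difference of 0.34. Ccr2, the chemokine receptor of inflammatory monocytes, stood higher by 0.85 ± 0.26 (SE), and Vcan (versican) by 1.77 ± 0.49. Ms4a4c was the member that stood lower, by -0.59, and without replicates 2 and 7 of 20 months the counts were 5 higher and 0 lower. Of 16 red pulp macrophage genes 1 stood higher, Cd5l, a macrophage survival factor, and Spic, the transcription factor of these cells, differed by 0.48 ± 0.41 (SE). Of 11 genes of eosinophils, basophils and mast cells 2 stood higher and 0 lower. Of 15 complement genes 1 stood higher, which was Itgam, with a median of 0.18. The count was 5 of 15 without replicates 2 and 7 of 20 months, with a median of 0.63, and without them the red pulp macrophage list had 2 of 16 higher and a median of 0.67, beside 0.30 with all libraries. Within the low Malat1 libraries the complement and red pulp macrophage medians were 0.26 and 0.14, and within the high ones -0.13 and 0.07.

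Genes of B cells stood lower. Of 19 tested B cell genes, 15 stood lower and 0 higher at an unadjusted p under 0.05, with a median log2 difference of -0.65, and all 19 had a negative difference. Cd22, an inhibitory co-receptor of B cells, ran from 2068 through 3160 to 3598 at 14 months and from 1111 through 1884 to 2564 at 20 months. Replicates 2, 5, 6 and 7 of 20 months were below all 14-month libraries and the other 3 within their range. The log2 difference was -0.73 ± 0.19 (SE; adjusted p 0.221 by limma and 0.0459 by DESeq2, the only B cell gene it called). Cr2, which encodes complement receptors of B cells, stood lower by -0.65. Without replicates 2 and 7 of 20 months, 8 of the 19 stood lower and the median was -0.48. The B cell median was -0.65 within the high Malat1 libraries and -0.27 within the low ones. Of 12 marginal zone B cell genes 6 stood lower and 0 higher (3 lower without 14-month replicate 8), among them S1pr3, a sphingosine phosphate receptor, by -0.69. The list's median was -0.41. The counts were 3 lower and 1 higher without replicates 2 and 7 of 20 months, with a median of -0.20. Within the high Malat1 libraries the median was -0.55 and within the low ones 0.0093. Of 17 plasma cell genes 1 stood higher and 1 lower, with a median of -0.015. Without replicates 2 and 7 of 20 months 2 stood higher and 0 lower, with a median of 0.30. Igha, the IgA heavy chain gene, had a median of 834 at 14 months and 1185 at 20 months, with 15734 in the highest library, replicate 5 of 20 months. Germinal centre genes numbered 0 of 9 in either direction, and early B cell genes 2 of 7 lower.

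T cell genes stood lower in a like count, but fewer did so when single libraries were left out. Of 20 tested, 15 stood lower and 0 higher at an unadjusted p under 0.05, with a median log2 difference of -0.59. The count was 8 without replicate 8 and 9 without replicate 9 of 14 months, which were the highest of their age. It was 8 without replicate 2 and 9 without replicate 7 of 20 months, and 3 without both of the latter. Cd3e, a chain of the T cell receptor complex, ran from 155 through 248 to 814 at 14 months and from 90.0 through 174 to 290 at 20 months, with most libraries of both ages overlapping. Its difference was -0.72 ± 0.32 (SE), with an adjusted p of 0.476 by limma. Of 12 naive T cell genes 7 stood lower and 0 higher, and 4 stood lower without replicates 2 and 7 of 20 months. S1pr1, the receptor that guides lymphocyte exit, stood lower by -0.70 ± 0.19, and Lef1, a transcription factor of naive cells, by -0.89 ± 0.41. Within the low Malat1 libraries the median of the T cell list was -0.05. It was -0.71 within the high ones, which include replicates 2 and 7 of 20 months.

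Other lymphoid and antigen-presenting lists had fewer members past this level. Of 15 natural killer cell genes 4 stood lower, and DESeq2 called Klra4, a Ly49 receptor gene of a family of close copies. Klra4 was at 149 and 91.7 in replicates 8 and 9 of 14 months, beside 8.57 to 48.0 in the other libraries of that age. At 20 months it ran from 2.25 to 35.3. Of 16 dendritic cell genes 6 stood lower, among them Cd209a by -1.34 ± 0.36 (SE), and of 11 MHC class II genes 4. Without replicate 2 of 20 months each of these 3 counts was 2, and without replicates 2 and 7 each was 1. Of 17 effector and exhausted T cell genes only Gzmk, the granzyme K gene of aged effector T cells, stood higher, beside 4.09% of all genes tested. The list's median was -0.09, and 11 of the 17 had a negative difference. Without replicates 2 and 7 of 20 months 3 stood higher and 0 lower, with a median of 0.23. Gzmk ran from 8.86 through 20.2 to 35.8 at 14 months and from 25.4 through 42.1 to 69.7 at 20 months, so that the groups overlapped in part. Its difference was 1.06 ± 0.46 (SE), and 1.2 without replicates 2 and 7 of 20 months. Regulatory and follicular helper T cell genes counted 2 lower of 10, and MHC class I genes 3 lower of 11, and both counts were 0 without replicates 2 and 7 of 20 months.

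**Figure D2:**
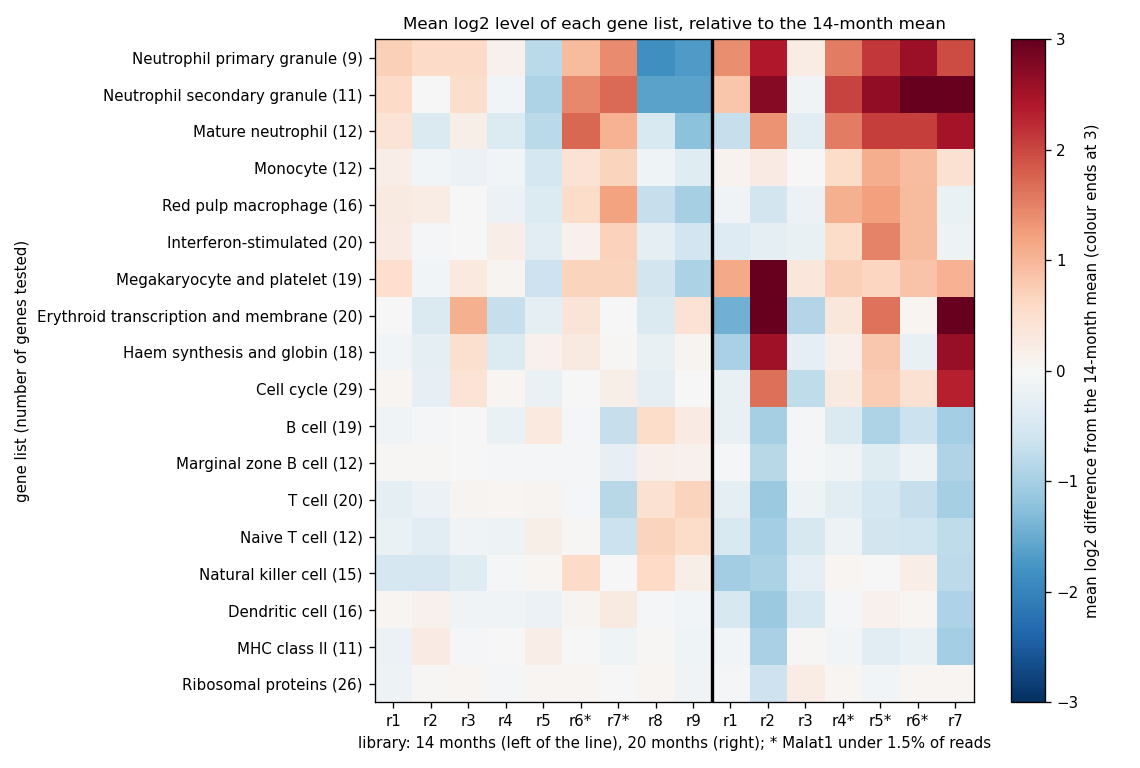
Mean log2 level of 18 gene lists in each of 9 libraries of 14 months and 7 of 20 months, relative to the 14-month mean, as colour from -3 to 3; asterisks mark libraries with Malat1 under 1.5% of reads. The secondary granule row is above all 14-month libraries in 5 of 7 libraries of 20 months, and the erythroid row reaches 3.67 and 4.70 in replicates 2 and 7.

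Genes of red cell precursors were high in replicates 2 and 7 of 20 months. Gata1, the transcription factor of erythroid and megakaryocyte cells, had values of 1604 and 3141 there, of 41.7 to 216 in the other 5 libraries of that age, and of 54.0 to 197 at 14 months. Its log2 difference was 1.14 ± 0.75 (SE; adjusted p 0.649 by limma and 0.0299 by DESeq2), and -0.20 without these libraries. Of 20 erythroid genes 2 stood higher at an unadjusted p under 0.05 by limma, while DESeq2 called 12. The list's median was 1.15 with all libraries and -0.13 without these replicates, when limma counted 0 in either direction. Replicate 5 of 20 months, with a list mean of 1.62, was also above the highest of 14 months, 1.06. The median was 1.61 within the high Malat1 libraries and 0.41 within the low ones. Slc4a1, the band 3 anion exchanger of red cells, had a median of 407 at 14 months and 444 at 20 months and a highest value of 11784. Of 18 haem and globin genes 4 stood higher, and 0 without these libraries, and of 14 iron handling genes 2 and 0. Globin transcripts took 0.562% of reads in replicate 2 of 20 months and 0.0277% to 0.238% in the others of that age.

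Cell cycle genes were highest in the same libraries. Their list mean was 1.65 in replicate 2 and 2.33 in replicate 7 of 20 months, and replicates 5 and 6, at 0.75 and 0.47, also lay above the highest of 14 months, 0.40. Mki67, a marker of dividing cells, reached 24193 in replicate 7 and 6478 in replicate 2 of 20 months, beside 1001 to 5626 in the others of that age and 1276 to 2942 at 14 months. Of 29 cell cycle genes 5 stood higher and 0 lower, with a median of 0.70, and 0 stood higher without these replicates, with a median of 0.12. The count ranged from 1 without replicate 7 to 19 without replicate 3 of 20 months. Haematopoietic progenitor genes counted 1 higher and 1 lower of 15.

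Megakaryocyte and platelet genes stood higher in 12 of 19 cases and lower in 0, with a median of 1.12. All 7 libraries of 20 months were above the 14-month mean of the list and 5 above every 14-month library, with replicate 2 far above the rest at 3.12. Itga2b, the platelet integrin chain CD41, ran from 109 through 183 to 281 and from 177 through 287 to 1962, and Pf4, platelet factor 4, from 39.0 through 86.6 to 160 and from 81.6 through 135 to 1001. In both genes most libraries of 20 months other than replicate 2 lay in or near the 14-month range. The count was 4 without replicate 2 and 0 without replicates 2 and 7, when the median was 0.69. Within the high Malat1 libraries the median was 1.70 and within the low ones 0.11.

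**Figure D3:**
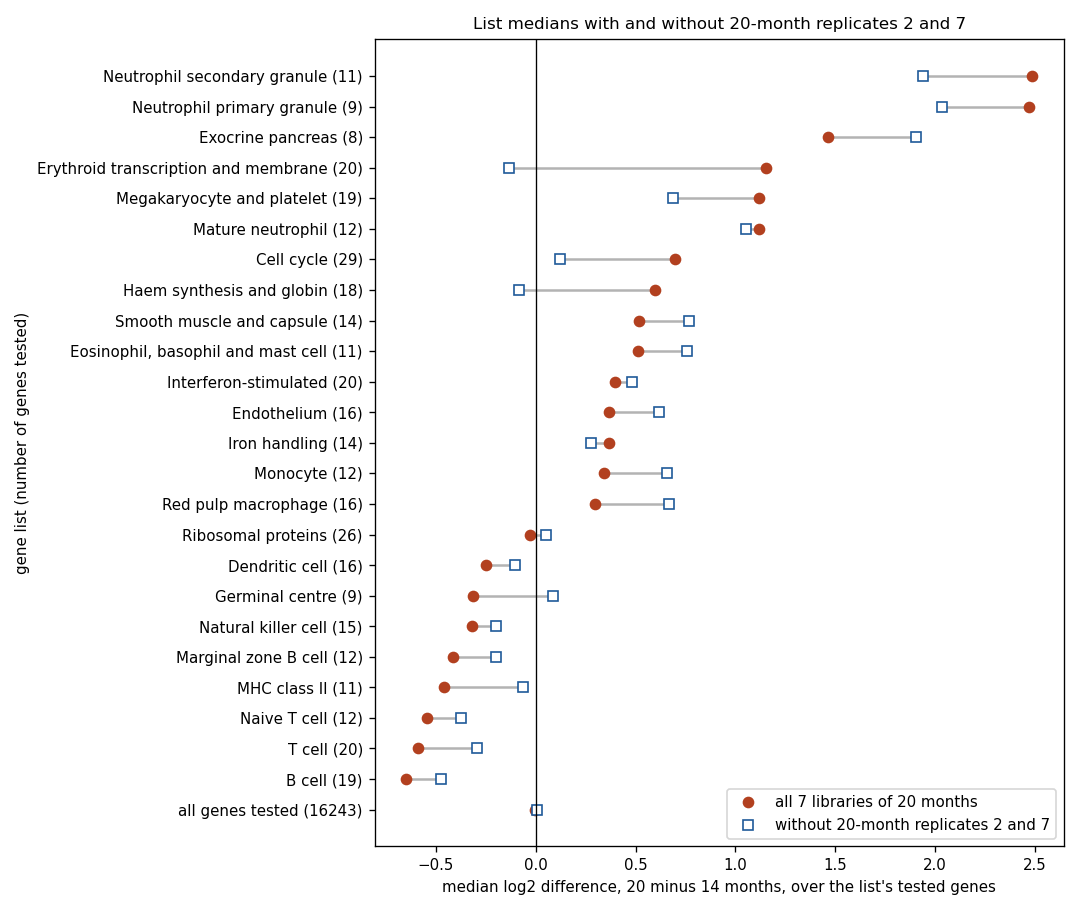
Median log2 difference, 20 minus 14 months, over the tested genes of 24 lists and over all 16243 genes, with all 7 libraries of 20 months (circles) and without replicates 2 and 7 (squares). The 3 neutrophil lists stay above 1 in both, while the erythroid list moves from 1.15 to -0.13.

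Among single genes that stood lower, Pik3r4 (chr9:105642978-105687657), the VPS15 regulatory subunit of the class III phosphatidylinositol 3-kinase in autophagy and endosome traffic, separated the ages. It ran from 319 through 377 to 518 at 14 months and from 144 through 268.7 to 308 at 20 months, without overlap. The log2 difference was -0.63 ± 0.15 (SE), with adjusted p values of 0.191 by limma, 0.117 by edgeR and 0.0299 by DESeq2. It was -0.42 without replicates 2 and 7 of 20 months, which were the lowest libraries. Dgkd (chr1:87853287-87945180), a diacylglycerol kinase gene, ran from 680 through 990 to 1318 and from 505 through 680 to 872, a difference of -0.58 ± 0.14. Whrn (chr4:63414910-63495991), the whirlin scaffold gene, ran from 110 through 163 to 188 and from 38.2 through 92.0 to 133, a difference of -0.98 ± 0.24. In both genes replicate 7 was the lowest of 14 months and lay among the values of 20 months. In Dgkd replicates 4 and 5 of 14 months, at 812 and 853, did so too.

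Gpr137c (chr14:45219717-45282725) ran from 47.0 through 81.8 to 138 at 14 months and from 18 through 43.5 to 71.7 at 20 months, and 5 of 7 libraries of 20 months lay below all of 14 months. Nlrp10 (chr7:108921852-108930178), a gene of the NOD-like receptor family, ran from 28.3 through 54.8 to 103 and from 10.6 through 22.4 to 40.9, also with 5 of 7 below. Their differences were -1.01 ± 0.26 and -1.15 ± 0.29 (SE), each with an adjusted p of 0.191 by limma. DESeq2 called all 5 of these lower genes, and edgeR called 0 of them. The 2 genes that did not overlap in the other direction were Naip2, an inflammasome sensor gene with close copies (126.7 to 215.0 at 14 months, 221.0 to 542 at 20 months), and Mov10l1, a piRNA pathway helicase gene at a low level (0 to 3.14 and 3.56 to 38.2).

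**Figure D4:**
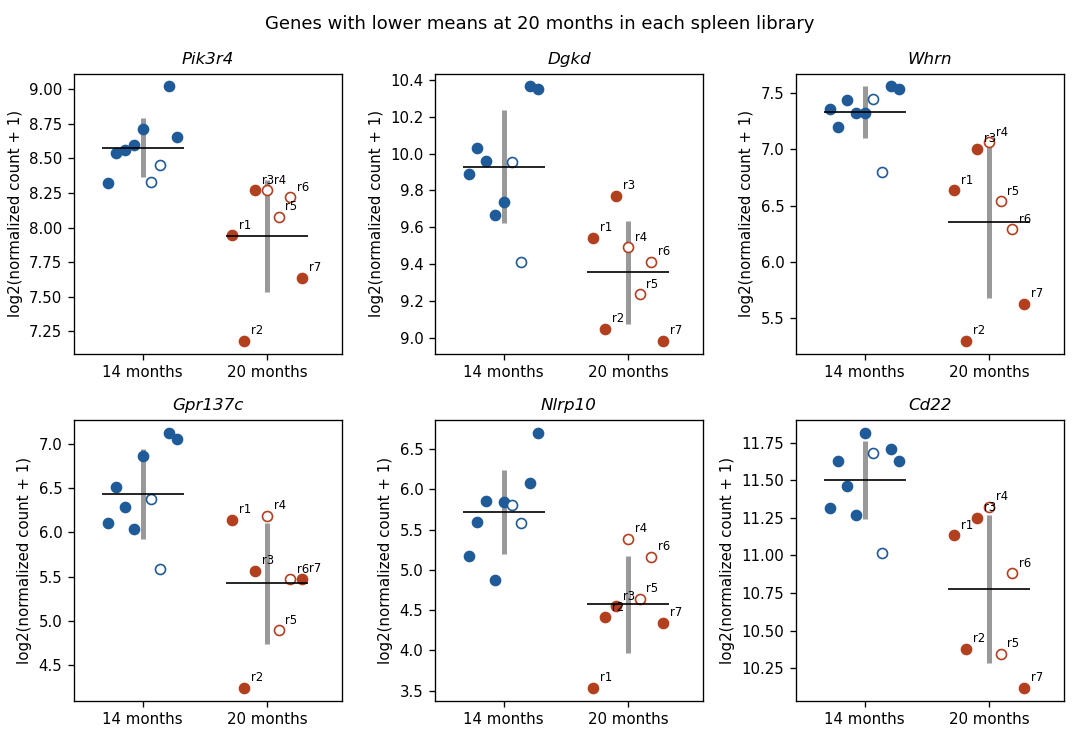
log2(normalised count + 1) of 6 genes in each of the 9 libraries of 14 months and 7 of 20 months, with open circles for Malat1 under 1.5% of reads, black lines for means and grey bars for 1 SD to either side. All 7 libraries of 20 months lie below all 9 of 14 months for Pik3r4, while the ages overlap in the other 5 genes.

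Interferon-stimulated genes counted 0 of 20 in either direction, with a median of 0.40. Their mean in replicates 4, 5 and 6 of 20 months, the low Malat1 libraries of that age, was 0.54, 1.49 and 0.94 above the 14-month mean, and it was below that mean in the other 4. Of the 20, 7 stood higher without replicates 2 and 7 of 20 months. The median was 0.70 within the low Malat1 libraries and -0.27 within the high ones. Inflammatory cytokine genes counted 0 of 12. Of stromal lists, 2 of 14 splenic stroma genes and 1 of 16 endothelial genes stood lower, 2 of 14 smooth muscle genes stood higher, and 0 of 19 matrix genes passed. Their medians were 0.05, 0.37, 0.52 and 0.12, and 14 of the 16 endothelial genes had a positive difference. Without replicates 2 and 7 of 20 months 5 endothelial and 5 smooth muscle genes stood higher and 0 lower, with medians of 0.62 and 0.77, and 1 stroma and 1 matrix gene stood higher, with medians of 0.34 and 0.37. Within the low Malat1 libraries the endothelial and smooth muscle medians were 0.13 and 0.24, and within the high ones 0.07 and 0.15. For stroma and matrix they were 0.02 and 0.11 within the low ones, and -0.24 and -0.24 within the high ones. Of 8 adipocyte genes 0 passed.

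Genes of the exocrine pancreas, which lies beside the spleen, were far above the rest in 1 library of each age. Their list mean was 5.78 above the 14-month mean in replicate 7 of 14 months and 6.12 above it in replicate 5 of 20 months, between -1.15 and 0.29 in the other 14-month libraries and between -0.73 and 2.09 in the other 20-month libraries. Cpb1, a pancreatic carboxypeptidase gene, had 668 and 452 in those libraries and at most 60.8 in the others. Replicates 4, 6 and 7 of 20 months, with list means of 1.66, 2.09 and 1.19, also lay above all 14-month libraries but replicate 7. Of 8 tested genes 1 stood higher at an unadjusted p under 0.05, with a median log2 difference of 1.46. Without replicates 2 and 7 of 20 months the median was 1.90. The part of pancreatic RNA in the other results was not tested.

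Lists of general cell functions held few members past an unadjusted p of 0.05. Ribosomal protein, nuclear-encoded respiratory chain, endoplasmic reticulum stress, ATF4 target and p53 and senescence genes counted 0 of 26, 24, 18, 18 and 16 in either direction. Immediate early genes counted 2 higher and 2 lower of 18, and cytosolic heat shock genes 1 higher of 13. Cholesterol synthesis, lysosome and autophagy, and circadian clock genes each had 1 member lower, of 19, 20 and 14, and glycolysis and hypoxia genes 1 higher of 20. Nuclear-retained RNAs counted 0 of 4.

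Seen over all 6 ages, the granule genes were highest at 20 months. The primary granule list mean was -1.07, -0.92 and -1.16 at 3, 5 and 8 months relative to 14 months, 1.75 ± 0.80 (SD, n = 7) at 20 months and 0.72 ± 1.01 (SD, n = 5) at 26 months. S100a9 averaged 174, 324 and 196 at 3, 5 and 8 months, 456 at 14, 3097 at 20 and 682 ± 395 (SD, n = 5) at 26 months, where its highest library was at 1195. Pik3r4 averaged 512, 494 and 485 at the 3 youngest ages, 385 at 14, 253 at 20 and 303 ± 103 (SD, n = 5) at 26 months. Dgkd and Cd22 were lower at 20 months (664 and 1838) than at any other age, with 953.3 and 2676 at 26 months. The erythroid list was more spread at 26 months (SD 3.11, n = 5) and 20 months (SD 2.30, n = 7) than at 3 to 14 months (SD 0.55 to 1.47). These levels are given as a description, and neighbouring ages overlapped in each of these genes and lists except Pik3r4 between 14 and 20 months.

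**Figure D5:**
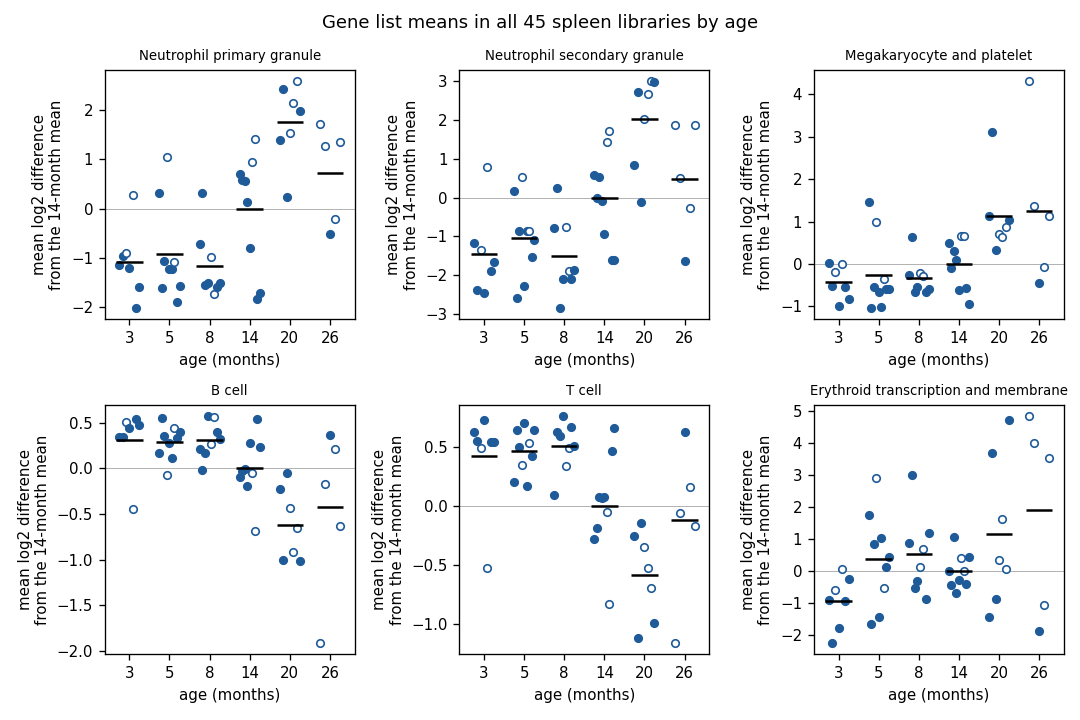
Mean log2 level of 6 gene lists in all 45 spleen libraries by age in months, relative to the 14-month mean; circles are libraries, open where Malat1 was under 1.5% of reads, and black lines are means. The granule lists are highest at 20 months, with means of 1.75 and 2.02, and the B and T cell lists lowest, at -0.61 and -0.58.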

How the data were processed

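Whole-spleen RNA was measured by bulk RNA sequencing. Per the labels' protocols, tissue was flash frozen and libraries were made from total RNA with a TruSeq kit. The build was GRCm38 and the tools included HISAT2 2.1.0, DESeq2 (in R 3.5.1), bcl2fastq 2.20, SAMtools and cutadapt, per the submitters' processing notes; the read counter, its strand setting and the annotation are not given in the sources used here. The deposited signal values are gene counts that the authors divided by size factors. In all 45 columns 100% of values were whole multiples of 1 read within 0.01, so reads could be recovered.

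The main test was limma 3.58.1 with a mean-variance trend on log2(value + 1), over all 45 spleen libraries with 1 mean per age, and Benjamini-Hochberg adjustment over 16243 genes. edgeR 4.0.16 and DESeq2 1.42.0 were run on recovered reads in R 4.3.3; DESeq2 gave no adjusted p for some low genes, which were left uncounted. Scripts were tested on simulated data. Library totals were compared by an exact permutation test in scipy; no pair of libraries of 1 age agreed within sampling noise. As fewer than 5 genes were called in either direction, the 5 of each direction with the smallest p were named among genes whose higher group averaged 50 or more, without predicted genes, antigen receptor segments, pseudogenes and X or Y genes. Other genes named were chosen after their values were seen. The comparison and the 46 gene lists (668 of 720 symbols tested) were chosen with earlier results of these data known. Gene positions are from GENCODE M21 and promoters from RefSeq. The labels name separate animals, and give no batch or date.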

Additional observations from a re-analysis of the deposited data

Results flagged for a closer look

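In 128 groups of values, 15 held a library far from the others of its age by Dixon's criterion, which flags about 1 in 20 groups by chance. Among genes, on the scale log2(value + 1), Whrn was at 6.80 in replicate 7 of 14 months beside 7.20 to 7.56 in the other 8, and Igkv8-24 at 11.69 in replicate 5 of 20 months beside 3.86 to 7.03. The other values are list means in log2 relative to the 14-month mean.

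At 20 months, replicate 2 was flagged for the megakaryocyte and platelet list (3.12, others 0.33 to 1.13), the adipocyte list (-1.94, others -0.27 to 0.74), the ribosomal protein list (-0.63, others -0.07 to 0.22) and its share of globin reads (0.562%, others 0.0277% to 0.238%). Replicate 5 was flagged for exocrine pancreas genes (6.12, others up to 2.09) and replicate 7 for ATF4 targets (0.47, others -0.08 to 0.15).

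At 14 months, replicate 7 was flagged for exocrine pancreas genes (5.78, others up to 0.29), cytosolic heat shock genes (0.94, others up to 0.22) and nuclear-encoded respiratory chain genes (0.28, others up to 0.08). Replicate 4 was flagged for effector and exhausted T cell genes (0.45), replicate 8 for haematopoietic progenitor genes (-0.57), and replicate 9 for inflammatory cytokine genes (-0.88) and nuclear-retained RNAs (1.08).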

How the results depend on the processing

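The count of 0 calls by limma was also 0 with TMM scaling, a pseudocount of 0.5, no filter on low values, a mean of at least 50, only both ages in the fit, robust variances, depth as a covariate, and without libraries under 5000000 reads. It was 2 with a pseudocount of 5 (both higher: Ctsg and the chitinase-like Chil1), 197 with sample weights (99 higher, 98 lower), 9 with edgeR (all higher) and 155 with DESeq2 (127 higher, 28 lower). Of DESeq2's 155 calls, 34 were among the 197. Leaving out 1 library at a time gave 0 to 9 calls, 0 to 8 higher and 0 to 1 lower, and the 9 calls came without replicate 3 of 20 months, which had low granule gene levels. Alternatives chosen after seeing the data were the Malat1 share as a covariate or term (0 calls each) and the fits without replicates 2 and 7 of 20 months (limma 0, edgeR 1 and DESeq2 1, in both Igkv8-24). The cause of these differences was not tested. The 15 named genes, edgeR's calls included, kept their sign in all alternatives run. The mean depth was higher at 20 months by 642234 reads, and lower without replicate 6 of that age (-111098; leaving out 1 library gave -111098 to 1334192). 1 read was worth a value of 2.25 in replicate 2 of 20 months (3031246 reads) and 0.505 in the library of 11702988. Low genes such as Ctsg, Ly6g and Mov10l1 thus rest on few reads at 14 months. No paired analysis was possible because each library carries its own animal number and the labels name no pairs of animals across the ages.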

Other observations

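Cxcl13, the chemokine that draws B cells into follicles, fell into 2 ranges that did not follow age. It lay between 4032 and 4426 in replicates 1 to 5 of 14 months and at 4302 and 4760 in replicates 1 and 3 of 20 months. In the other 4 libraries of 14 months and 5 of 20 months it lay between 1303 and 2242. Replicates 1 and 3 of 20 months were also the libraries of that age with the lowest granule list means, while the low range at 14 months held both the highest (replicates 6 and 7) and the lowest (replicates 8 and 9). The pattern was noticed in the values and its cause was not tested.

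Reads of immunoglobulin kappa V segments were unevenly spread over segments in both ages. The most abundant segment took 13.1% to 55.9% of these reads at 14 months (median 24.1%) and 17.6% to 68.8% at 20 months (median 31.7%), over at most 42167 reads per library. It was Igkv5-39 in 8 of the 16 libraries. Replicate 5 of 20 months was led by Igkv8-24 with 29.5%. For heavy chain V segments the leading share was 10.3% to 59.9% at 14 months (median 20.8%) and 12.6% to 36.7% at 20 months (median 28.4%). The ages overlapped in both, and reads can be split among those segments that are close copies.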
